A study of Mus musculus with 10 samples.

Results

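USP10 overexpression was examined in C2C12 cells, a mouse myoblast line that fuses into myotubes when serum is withdrawn, after 6 days of differentiation. The comparison set 1 library from a stable C2C12 line that carried a USP10 cDNA under the EF1a promoter against the control column deposited beside it, which its header names as the wild-type day 6 read file. Both were cultured in DMEM with fetal bovine serum and then in DMEM with 2% horse serum. Genes of 1 FPKM or more (fragments per kilobase of transcript, scaled to the fragments sequenced) in either column were compared, which kept 11482 of the 23431 genes listed, and 8638 of these reached 5 FPKM in either column. The series holds 10 samples in all, the others being controls and Huwe1 knockdowns at day 0, day 6 and day 8. How many clones the USP10 line came from, and whether the cDNA was of mouse or human origin, was not given in the sources used here.

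USP10 is a deubiquitinase, an enzyme that removes ubiquitin chains and so can spare a protein from the proteasome, whereas Huwe1 is a HECT-domain ubiquitin ligase that attaches them. The study examined both enzymes in relation to TBP, the TATA-binding subunit of TFIID, a complex through which RNA polymerase II is brought to promoters. In muscle differentiation, the factors Myod1 and Myf5 commit a myoblast, Myog (myogenin) and Mef2c switch on the contractile genes, and the cell leaves the cell cycle and fuses. The question this library addresses is how far the mRNA program of a day 6 culture differed when USP10 was supplied from a transgene.

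Only 1 library stood on each side, so that no difference below has a replicate check and no p-value is given. A gene was counted as higher or lower when the log2 ratio of USP10 library to control, with 0.01 FPKM added to each value, was at least 1 or at most -1, that is, 2-fold. Genes called higher or lower in a count below passed this limit. The steps between low FPKM values put the control column at about 7800000 fragments and the USP10 library at about 27700000, so that a 2000-base transcript at 5 FPKM rested on about 78.0 fragments in the control. Intervals given below are 95% exact (Clopper-Pearson) intervals of the log2 ratio computed from estimated fragments, which cover counting error only, not the spread between cultures. A second day 6 control column, deposited with the knockdown of Huwe1 and naming the same read file, was estimated at 29900000 fragments and differed from the control used here by at least 2-fold, after centring on the median gene, in 1325 of the 8638 genes (15.3%). The labels hold 1 wild-type day 6 sample, so that the 2 columns are not 2 known cultures, and which library the control used here came from is not known. The second column's value is therefore given beside the main results, as a level from a table that was normalized separately.

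The culture carried the markers of differentiating skeletal muscle in both columns. Acta1, skeletal actin, stood at 2164 FPKM in the control against 1599 FPKM with USP10, Des (desmin) at 1053 and 983 FPKM, and Mylpf, the fast regulatory light chain, at 2857 and 1953 FPKM. These were among the contractile genes that differed least, most others being lower in the USP10 library as given below. Each of the 3 differed by less than 2-fold between the columns and stood above its day 0 level in both, the day 0 control holding 3.93, 345 and 4.48 FPKM. The second day 6 control held Acta1 at 4282 FPKM and Mylpf at 5865 FPKM, both more than 2-fold above the USP10 library. It held Des at 1769 FPKM, within 2-fold. Of 12 markers of blood and endothelial cells, 10 stayed under 1 FPKM in both columns and 4 (Ptprc among them) were listed at 0 in both. Their summed level was 5.51 FPKM in the control against 9.44 FPKM with USP10, most of the latter from Cdh5 (VE-cadherin), which stood at 0.278 and 6.81 FPKM and was 13.5 FPKM in the day 0 control. In such bulk RNA, fewer cells of a type and less RNA per cell cannot be told apart.

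The gene named by the genotype was higher in the USP10 library. Usp10 (chr8:119910852-119957557 in mm10, as the deposited locus gives it) was at 10.3 FPKM in the control against 38.3 FPKM with USP10, a log2 ratio of 1.89 (interval 1.66 to 2.14) and a 3.70-fold higher level. The second day 6 control listed it at 13.2 FPKM, below the USP10 library as well. The overexpressing library did not have the highest level of the series, since the day 0 control held 68.5 FPKM of Usp10. The pooled Huwe1 knockdown column of day 6 held 35.4 FPKM, the day 8 control 14.5 FPKM and the day 8 knockdown 13.1 FPKM. The deposited value sums reads of the transgene, so far as they map to the mouse gene, with those of the endogenous gene, and the 2 sources cannot be told apart here.

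Huwe1 (chrX:151803282-151935417) stood at 44.7 FPKM in the control against 41.0 FPKM with USP10, a log2 ratio of -0.13 (interval -0.17 to -0.08). The ligase mRNA was thus within 10% of its control, while the knockdown column of day 6 listed it at 21.9 FPKM. Tbp (chr17:15499888-15517427) was 27.8 FPKM in the control against 89.6 FPKM with USP10, a 3.22-fold higher mRNA level and a log2 ratio of 1.69 (interval 1.48 to 1.90). The second day 6 control held 10.8 FPKM, more than 2-fold below the first, and the day 0 control 22.7 FPKM. The USP10 library had the highest Tbp level of the 8 columns. Its neighbours on chromosome 17 did not share this difference: Psmb1, a proteasome subunit, was 133 and 160.3 FPKM, and Pdcd2 was 18.1 and 17.5 FPKM.

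**Figure D1:**
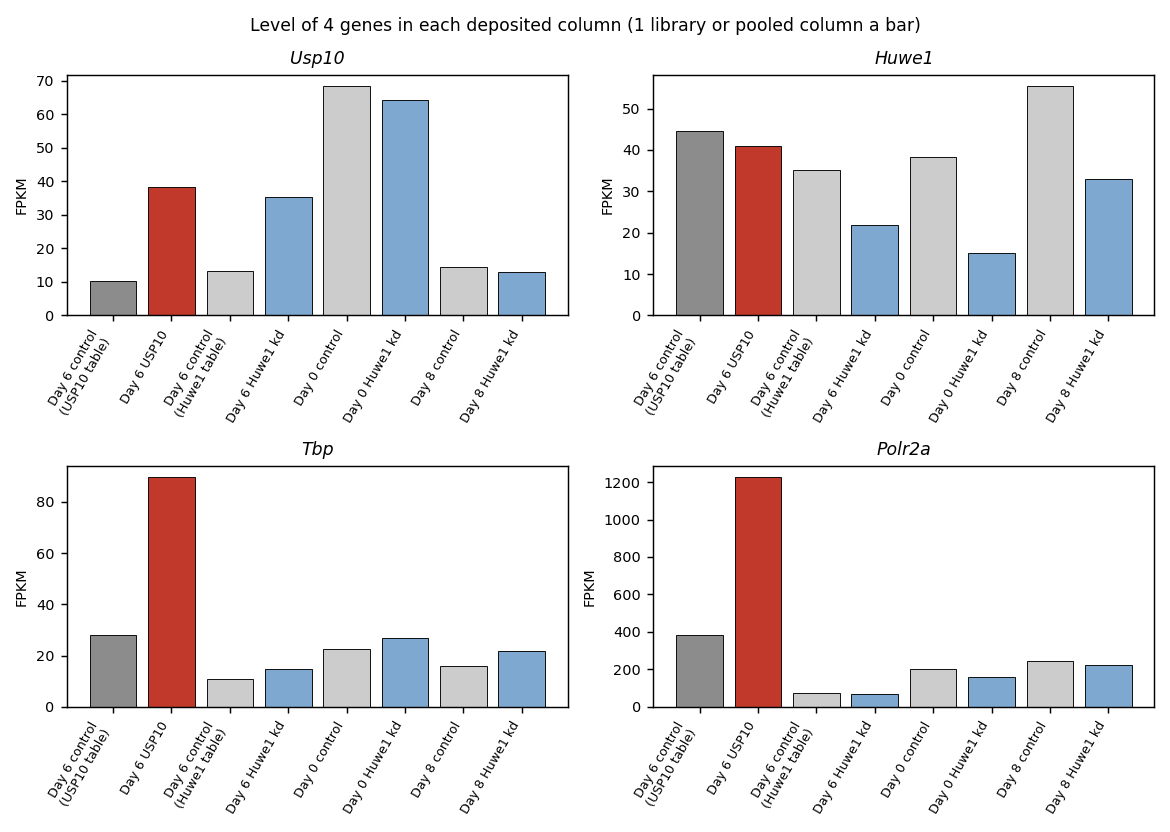
Level in FPKM (linear axis from 0) of Usp10, Huwe1, Tbp and Polr2a in the 8 deposited columns; each bar is 1 library or, for the Huwe1 knockdowns (kd), 1 pooled column, so there are no error bars. Tbp at 89.6 FPKM and Polr2a at 1226 FPKM are highest in the USP10 library, whereas Usp10 at 38.3 FPKM is below both day 0 columns.

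Among 34 measured genes of TFIID and RNA polymerase II initiation with at least 5 FPKM, 4 were higher and 0 lower, and the median log2 ratio was 0.05. Over all 8638 genes at this level, 740 (8.57%) were at least 2-fold higher, 658 (7.62%) at least 2-fold lower, and the median was 0.07. Besides Tbp, the genes above 2-fold were Polr2a, the catalytic subunit of the polymerase, at 383 FPKM in the control against 1226 FPKM with USP10, Ercc3, a TFIIH helicase, at 13.5 and 33.3 FPKM, and Drap1, a partner of the repressor Dr1, at 59.3 and 140.3 FPKM. Polr2a also differed between the controls, since the second day 6 control listed it at 74.9 FPKM. Only Tbp and Polr2a were 2-fold higher than both controls, Ercc3 and Drap1 standing at 17.3 and 100.2 FPKM in the second. Most TAF subunits lay within 2-fold: Taf1 was 21.4 and 25.2 FPKM, Taf4a 5.07 and 7.11 FPKM, and Taf13, which had the largest log2 ratio of the listed TAFs at this level (0.84), 21.1 and 37.8 FPKM. Below 5 FPKM in both columns, and named after their values were seen, Taf9b was higher at 0.959 and 3.70 FPKM (log2 ratio 1.94, interval 1.26 to 2.69), and Taf5 and Taf7 were lower at 2.64 and 1.26 FPKM and 4.94 and 2.32 FPKM.

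A list of Usp10 itself, Huwe1 and known substrates and partners of USP10 had 12 genes with at least 5 FPKM. Of these, 9 lay within 2-fold, beside 83.8% of all genes at this level. Trp53, the p53 tumour suppressor, was 26.6 FPKM in the control against 25.3 FPKM with USP10, and the stress-granule protein genes G3bp1 and G3bp2 were 51.1 and 49.0 FPKM and 27.5 and 28.7 FPKM. The exceptions were Usp10 itself, Snx3, an endosomal sorting nexin, at 98.0 and 728 FPKM, and Tia1, an RNA-binding protein of stress granules, at 6.83 and 2.93 FPKM. Of 22 p53 target genes with at least 5 FPKM, 1 was at least 2-fold higher and 3 lower, with a median of 0.07, among them Cdkn1a (p21) at 286 and 248 FPKM and Fas, a death receptor, at 22.4 and 3.09 FPKM.

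Over the whole table, 1153 of 11482 genes (10.0%) were at least 2-fold lower in the USP10 library and 1114 (9.70%) at least 2-fold higher, around a median log2 ratio of 0.05. Differences of at least 8-fold were found in 295 and 239 genes, and at a minimum of 5 FPKM in 153 and 131. The 12 largest decreases by the fixed rule were Myh8, Myh7, Casq1, Myh1, Actn2, Fgf21, Mb, Gpx3, Ankrd23, Smpx, Pygm and Tcap, of which 10 belong to the sarcomere, calcium store or fuel supply of muscle fibres. The other members were Fgf21, a secreted metabolic factor, at 298 FPKM in the control against 5.04 FPKM with USP10, and Gpx3, a secreted glutathione peroxidase, at 130.1 and 2.33 FPKM. The 12 largest increases were Gm9846, Dcn, Serpinb9b, Mgam, Ly6c1, Elmo1, Efhd1, Serpinb7, Pla1a, Ccl8, Aim2 and Ranbp3l, and none of these is a contractile gene.

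**Figure D2:**
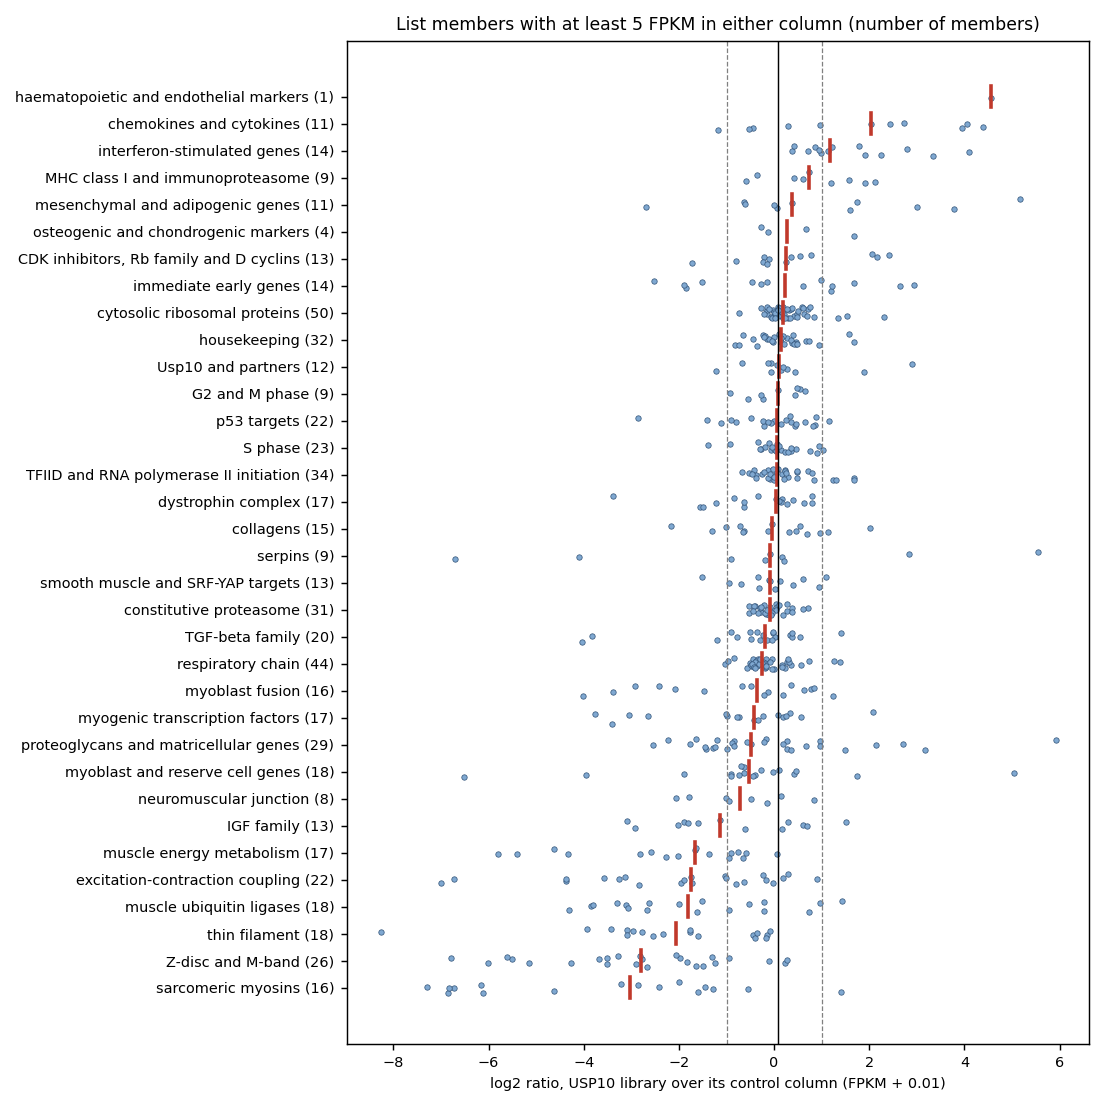
Log2 ratio of USP10 library over control (FPKM + 0.01; horizontal axis) of the members of each gene list of 5 FPKM or more in either column; points are genes (Myot, listed at 0 in the USP10 library, is not drawn but counts in its list), red bars list medians, the solid line the median of 8638 genes and dashed lines 2-fold. Sarcomeric myosins lie lowest, with a median of -3.04, and the chemokine and interferon lists highest among lists of more than 1 gene, with medians of 2.04 and 1.17, an order that turned at a minimum of 1 FPKM (0.96 and 1.79).

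The factors that drive differentiation differed between the columns to unequal degrees. Of 17 myogenic transcription factors and partners with at least 5 FPKM, 5 were at least 2-fold lower, 1 was higher and 11 were within 2-fold. Myog (chr1:134290004-134292548) was 305 FPKM in the control against 28.8 FPKM with USP10, 10.6-fold lower with a log2 ratio of -3.40 (interval -3.50 to -3.31). The second day 6 control held 619 FPKM and the day 0 control 0.164 FPKM, so that the USP10 library lay between day 0 and day 6 levels. Mef2c, its partner on muscle enhancers, was 49.95 and 3.69 FPKM, close to its day 0 control level of 2.59 FPKM. Eya4, a coactivator of homeobox factors, was 42.7 and 5.14 FPKM, and Tead4, a Hippo pathway factor, 16.6 and 2.66 FPKM. These 4 genes were also lower than in the second day 6 control.

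Myod1, Mef2a and Mef2d differed less. Myod1 was 83.5 FPKM in the control against 50.4 FPKM with USP10, a log2 ratio of -0.73 (interval -0.83 to -0.63), and stayed above its day 0 control level of 21.7 FPKM. Mef2a was 83.3 and 62.1 FPKM (log2 ratio -0.42), and Mef2d was 45.4 and 48.3 FPKM (log2 ratio 0.09). Against the second day 6 control, where Myod1 was 155 FPKM and Mef2a 224 FPKM, both lay more than 2-fold lower in the USP10 library, so that their place within 2-fold depended on the control. Myf5, the commitment factor of proliferating myoblasts, was the 1 list member that was at least 2-fold higher, at 4.79 FPKM in the control against 20.2 FPKM with USP10. It also exceeded the second day 6 control, at 3.51 FPKM, and its level of 12.5 FPKM on day 0. Myf6, the late factor Mrf4, was below 5 FPKM in both columns, at 4.93 and 0.283 FPKM.

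The lowest list median at 5 FPKM was that of the sarcomeric myosins, the motor of the thick filament, although with 1 FPKM required in both columns it was that of the Z-disc and M-band list (-2.73 against -2.42). Of 16 genes with at least 5 FPKM, 14 were lower by 2-fold or more and 1 higher, with a median log2 ratio of -3.04, and the same 14 were at least 2-fold lower than both day 6 controls. Myh3, the embryonic heavy chain, was 676 FPKM in the control against 72.9 FPKM with USP10 (log2 ratio -3.21, interval -3.24 to -3.18). Myh8, the perinatal chain, was 152 and 1.33 FPKM, and Myh7, the slow chain, 223 and 2.09 FPKM. Myh3 thus kept 10.8% of its control level and Myh8 0.873%. The fast chains of adult muscle were also close to absent, with Myh4 at 46.9 and 0.287 FPKM and Myh1 at 235 and 3.38 FPKM. The heavy chain genes are near copies of each other, and how the authors' counting divided shared reads between them is uncertain. The controls themselves differed by more than 3-fold for Myh1, Myh2 and Myh8, with Myh1 at 2029 FPKM in the second.

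Light chains had smaller log2 ratios than the heavy chains named above. Myl1, the essential light chain of fast fibres, was 3769 FPKM in the control against 519 FPKM with USP10, Myl4, its embryonic counterpart, 650.1 and 269 FPKM, and the myosin-binding protein Mybph 1001 and 251 FPKM. Mybpc1, the slow myosin-binding protein C, was lower by more, at 23.3 and 0.318 FPKM. Mylpf kept 68.4% of its control level. Myh14, a nonmuscle myosin placed in this list, was the 1 gene that was higher, at 3.97 and 10.6 FPKM, but the second day 6 control listed it at 13.8 FPKM.

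Thin filament genes showed the same uneven picture. Of 18 genes with at least 5 FPKM, 12 were lower by 2-fold or more and 6 within 2-fold, with a median of -2.06, and all 18 log2 ratios were below 0. Nrap, an actin-binding scaffold of forming myofibrils, was 186 FPKM in the control against 0.596 FPKM with USP10, and Neb (nebulin) 188 and 17.5 FPKM. The slow troponins Tnnt1 and Tnni1 were 813 and 53.3 FPKM and 571 and 66.8 FPKM, and cardiac actin Actc1 544 and 108 FPKM. The genes within 2-fold included the fast troponin Tnni2 at 768 and 695 FPKM, the cardiac-type troponin Tnnt2 at 717 and 638 FPKM, and tropomyosin Tpm2 at 1283 and 1216 FPKM. In the second day 6 control these 3 stood at 2002, 1623 and 2925 FPKM, more than 2-fold above the USP10 library, so that they too were lower against that column.

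**Figure D3:**
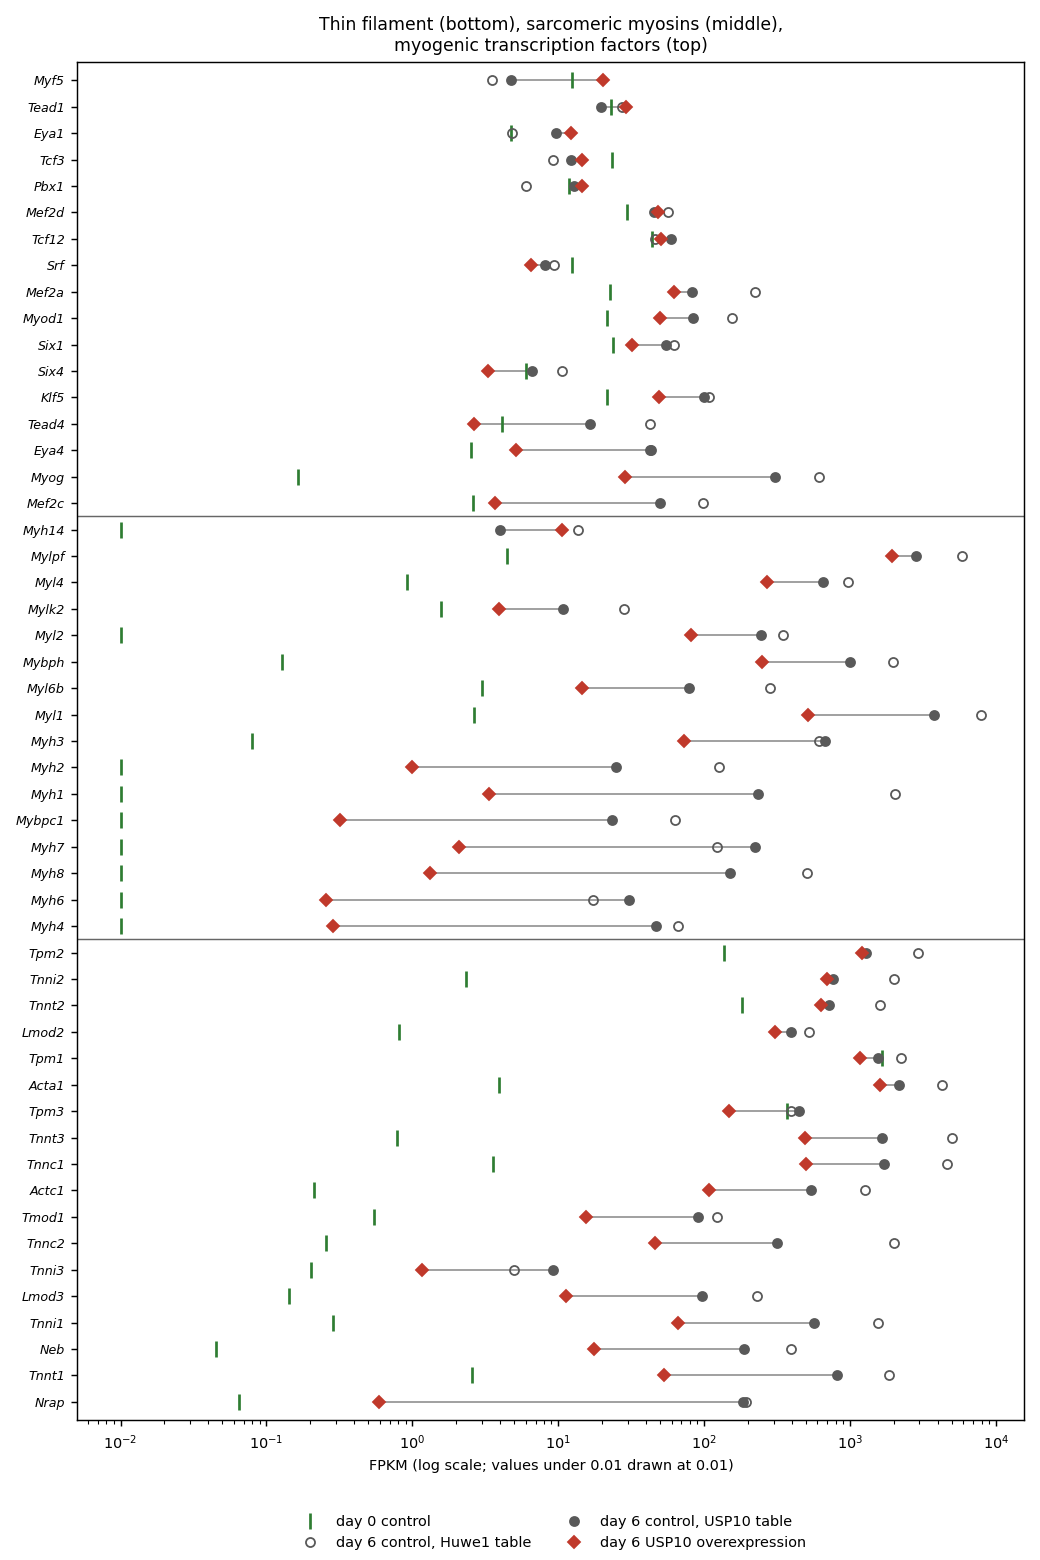
FPKM (log axis) of thin filament, sarcomeric myosin and myogenic transcription factor genes of 5 FPKM or more in either column of the comparison; filled circles are the control used here, diamonds the USP10 library, open circles the second day 6 control and green ticks the day 0 control, with values under 0.01 FPKM drawn at 0.01. In the thin filament list all 18 diamonds lie left of the filled circles, by 313-fold for Nrap, while those of Tnni2 and Tpm2 nearly coincide with them.

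The scaffold of the sarcomere was lower almost throughout. In the Z-disc and M-band list, 22 of 26 genes were lower by 2-fold or more and 0 higher, with a median of -2.80. Actn2, the Z-disc alpha-actinin, was 80.4 FPKM in the control against 1.23 FPKM with USP10, Tcap (telethonin) 41.2 and 1.15 FPKM, and Smpx, a small muscle protein, 169 and 3.71 FPKM. Myot (myotilin) was 9.51 FPKM in the control and listed at 0 in the USP10 library. Ttn (titin) was 51.9 and 13.2 FPKM, a smaller difference than those of the Z-disc genes just named. Cryab, a small heat-shock chaperone, and Pdlim5, a LIM-domain protein, lay within 2-fold at 945 and 1135 FPKM and at 52.1 and 61.1 FPKM.

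Taking the 3 contractile lists together, 60 genes had at least 5 FPKM, and the USP10 library kept a median of 15.1% of the control level. Genes such as Myh8, Nrap and Actn2 passed this minimum through the control column alone, where they were high. The median, and the counts and correlation below, include such genes. Under 5% of the control level remained for 14 genes, 5% to 50% for 34 and over 50% for 12. Genes with a higher level in proliferating cells tended to keep more: across the 60 genes, the day 0 control level and the log2 ratio had a Spearman rho of 0.69. This is a description across genes that share the same libraries and are not independent replicates, and 12 of the 60 were listed at 0 on day 0. Of the 12 genes that kept over 50%, 9 were at least 2-fold above their day 0 level.

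Excitation-contraction coupling, by which a membrane signal releases calcium, was represented by 22 genes with at least 5 FPKM, of which 14 were lower by 2-fold or more and 0 higher (median -1.74). With 1 FPKM required in both columns, the median was -1.04 over 19 genes. Casq1, the calcium store protein of fast fibres, was 118 FPKM in the control against 1.10 FPKM with USP10, a log2 ratio of -6.73 (interval -7.25 to -6.25). Its cardiac-type counterpart Casq2 was 399 and 45.5 FPKM, and the calcium pump Atp2a1 86.1 and 11.9 FPKM. The release channel Ryr1 was 67.2 and 17.3 FPKM and its voltage sensor Cacna1s 45.9 and 13.8 FPKM. Pvalb (parvalbumin), a calcium buffer of fast fibres, had the lowest ratio of the list, at 19.4 and 0.141 FPKM. The junctophilins, which tether the membranes, were divided, Jph1 being 17.7 and 8.59 FPKM and Jph2 52.5 and 64.1 FPKM, and the junction protein gene Jsrp1 was 98.2 and 112 FPKM.

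In muscle energy metabolism, 11 of 17 genes were lower by 2-fold or more and 0 higher (median -1.66). Mb (myoglobin) was 199 FPKM in the control against 3.54 FPKM with USP10, Pygm, muscle glycogen phosphorylase, 44.0 and 1.03 FPKM, and Ckm, muscle creatine kinase, 78.1 and 16.2 FPKM (log2 ratio -2.27, interval -2.40 to -2.15). Respiratory chain genes found in most tissues did not share them: of 44 such genes, 1 was lower by 2-fold or more and 2 higher, with a median of -0.25. At the neuromuscular junction, 3 of 8 genes were at least 2-fold lower, all subunits of the acetylcholine receptor, with Chrng at 184 and 44.0 FPKM. Musk, the receptor kinase that organises the junction, was 34.1 and 30.6 FPKM.

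Fusion genes differed unevenly. The fusogens Tmem8c (myomaker) and Gm7325 (myomixer) were 516 and 187 FPKM and 14.3 and 0.870 FPKM in the control and the USP10 library. Both were lower, by 2.76-fold and 16.5-fold, although myomaker stayed far above its day 0 level of 0.721 FPKM. The membrane-repair genes Trim72 and Dysf were 24.7 and 3.26 FPKM and 25.1 and 5.97 FPKM. The tetraspanin Cd81 was 199.9 and 226 FPKM, M-cadherin Cdh15 35.9 and 55.6 FPKM, and Ehd2, a membrane-remodelling ATPase, 33.8 and 80.0 FPKM. In all, 6 of 16 fusion genes were lower by 2-fold or more and 1 higher. Of 17 genes of the dystrophin complex, 4 were lower and the median was 0.03, while against the second day 6 control, centred and at 1 FPKM, it was -1.11.

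The list of muscle ubiquitin ligases and chaperones had 11 of 18 genes at least 2-fold lower and 1 higher (median -1.81). Klhl41, a Kelch protein of the sarcomere, was 356 FPKM in the control against 17.9 FPKM with USP10, Trim63 (the atrophy ligase MuRF1) 36.3 and 5.69 FPKM, and Fbxo32 (atrogin-1), within 2-fold, 24.2 and 12.6 FPKM. The chaperone Unc45b, needed for myosin folding, was 23.4 and 1.67 FPKM, whereas the general small heat-shock protein Hspb1 was higher, at 242 and 649 FPKM. All 31 constitutive proteasome genes lay within 2-fold, with a median of -0.09.

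Genes of quiescent and proliferating myoblasts differed in both directions. Of 18 with at least 5 FPKM, 3 were lower by 2-fold or more and 2 higher. Beside the 7.62% and 8.57% of all genes at this level, counts this small say little about the list as a whole. Pax7, the satellite cell factor, was 8.27 FPKM in the control against 0.0808 FPKM with USP10, and Dll1, a Notch ligand, 5.37 and 0.337 FPKM. On day 0, Pax7 was listed at 0 and Dll1 at 0.143 FPKM. Hes6, a Notch-related repressor, was the other lowered gene, at 23.05 and 6.22 FPKM. Msc (musculin), a repressor of myogenic factors, was 0.155 and 5.43 FPKM, its control value resting on about 1.5 fragments, and was 3.57 FPKM in the day 0 control.

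The cell cycle lists did not follow the muscle lists. Of 23 S phase genes with at least 5 FPKM, 1 was lower by 2-fold or more and 1 higher (median 0.07), and none of 9 G2 and M phase genes passed 2-fold either way (median 0.09). At 1 FPKM, 3 of 38 G2 and M phase genes were lower and 1 higher (median -0.28), and against the second day 6 control the median at 5 FPKM was 1.17. In the USP10 library, 20 of the 23 S phase genes and all 9 of the G2 and M phase genes were at least 2-fold below their day 0 control level. Some regulators of G1, which act earlier, were higher. In the list of CDK inhibitors, Rb family and D cyclins, 3 of 13 genes with at least 5 FPKM were higher and 1 lower (median 0.25). Over all genes at this level, the shares were 8.57% and 7.62%. Ccnd1 was 10.4 FPKM in the control against 55.4 FPKM with USP10 (log2 ratio 2.41, interval 2.24 to 2.58), Ccnd2 13.4 and 55.9 FPKM, and Cdk6 2.06 and 9.26 FPKM. The second day 6 control listed Ccnd1 at 1.03 FPKM and Ccnd2 at 1.69 FPKM, lower still. Ccnd3 and Cdk4 lay within 2-fold, at 63.6 and 108 FPKM and 44.1 and 64.6 FPKM. Among inhibitors, Cdkn1c (p57) was 4.95 and 0.658 FPKM, below 5 FPKM in both, and Rbl2 (p130), the pocket protein of cells that have left the cycle, 51.5 and 15.6 FPKM.

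Many interferon-stimulated genes were higher in the USP10 library. Of 25 with at least 1 FPKM, 17 were at least 2-fold higher and 1 lower, beside 9.70% and 10.0% of all genes, the lower one being Ifitm1 at 2.82 and 1.06 FPKM. At 5 FPKM, 8 of 14 were higher and 0 lower, with a median of 1.17, and all 14 log2 ratios were above 0. Genes such as Ifit3 passed these minimums through the USP10 column alone, and the 15 genes of 1 FPKM or more in both columns had a median of 1.10. Ifit3, an antiviral effector, was 0.717 FPKM in the control against 12.4 FPKM with USP10 (log2 ratio 4.10, interval 3.19 to 5.15). Isg15, a ubiquitin-like modifier, was 1.91 and 13.3 FPKM, and Ifit2 5.28 and 19.9 FPKM. The control values are small, resting on about 9.8 fragments for Ifit3 and 11 for Isg15, and Ifit genes share sequence with one another. Irf9, a signalling component, was 2.75 and 9.51 FPKM. The deeper second day 6 control listed Ifit3 at 0.119 FPKM and Isg15 at 0.662 FPKM, and all 8 genes that were 2-fold higher were so against both. The pooled Huwe1 knockdown column of day 6 held Ifit3 at 21.2 FPKM and Isg15 at 22.3 FPKM. High levels of these genes were thus not particular to the USP10 library.

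Genes of MHC class I presentation were higher in 4 of 9 cases and lower in 0 (median 0.74). H2-K1, a class I heavy chain, was 27.3 FPKM in the control against 118 FPKM with USP10, and its light chain B2m 402 and 1195 FPKM. The proteasome activators Psme1 and Psme2 lay within 2-fold, at 32.8 and 43.6 FPKM and 23.8 and 15.8 FPKM. The H2 genes are near copies of each other, so that single values among them are uncertain. Aim2, a cytosolic DNA sensor and 1 of the 12 largest increases, was 1.15 and 23.5 FPKM, and its day 0 control level was 21.5 FPKM.

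Promoters of 5 genes are shown to set the letters beside the values. Myog and Casq1 were lowered, Isg15 and Ifit1 were raised, and Mylpf lay within 2-fold. Each is given as the 120 bases before the RefSeq start of transcription in GRCm38.p6, written 5′ to 3′ on the strand of the gene. Capitals mark every match, on either strand, to CANNTG, the E-box that Myod1 and Myog bind, and to GAAA repeated with any 2 bases between, the core of the interferon-stimulated response element. TATAAA, the consensus TATA box, was searched too and had no match in these 5 windows.
Myog (chr1:134289884-134290003, plus strand): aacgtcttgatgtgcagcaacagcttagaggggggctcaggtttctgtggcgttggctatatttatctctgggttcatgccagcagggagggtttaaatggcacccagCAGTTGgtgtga
Casq1 (chr1:172219896-172220015, minus strand): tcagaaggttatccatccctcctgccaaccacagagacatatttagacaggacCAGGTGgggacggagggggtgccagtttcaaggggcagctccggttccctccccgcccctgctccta
Mylpf (chr7:127211488-127211607, plus strand): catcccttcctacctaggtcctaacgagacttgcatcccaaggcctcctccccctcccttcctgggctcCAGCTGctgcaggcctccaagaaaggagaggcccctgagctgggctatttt
Isg15 (chr4:156200819-156200938, minus strand): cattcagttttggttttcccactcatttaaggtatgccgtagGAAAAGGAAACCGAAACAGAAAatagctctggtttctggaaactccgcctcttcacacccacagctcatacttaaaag
Ifit1 (chr19:34640769-34640888, plus strand): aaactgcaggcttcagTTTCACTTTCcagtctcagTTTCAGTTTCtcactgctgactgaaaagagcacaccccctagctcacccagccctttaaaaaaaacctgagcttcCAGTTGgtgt
The Myog, Casq1 and Mylpf windows hold 1 E-box each, and Casq1 kept 0.936% of its control level and Mylpf 68.4%. The Isg15 window holds 3 overlapping matches to the interferon element and the Ifit1 window 2, both on the other strand, beside 1 E-box. Among the 27025 genes of the promoter table, 40.0% had an E-box, 1.21% an interferon element and 6.76% a TATAAA in the same window. Ifit1 itself was 0.288 FPKM in the control against 3.88 FPKM with USP10, under 5 FPKM in both. Shares of these letters among lowered and raised genes were computed but set aside. The table held a promoter for only 76.8% and 77.5% of the protein-coding genes in those groups.

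Chemokines and cytokines had 6 of 11 genes at least 2-fold higher and 1 lower (median 2.04). The median was 0.96 over the 13 genes of 1 FPKM or more and 0.41 over 21 genes with no minimum. Among the raised genes, Ccl8, Ccl2 and Il33 reached 5 FPKM through the USP10 column alone. Ccl8, a chemoattractant of monocytes, was 1.90 FPKM in the control against 40.3 FPKM with USP10, Ccl2, another, 2.14 and 33.1 FPKM, and Ccl7 14.1 and 58.4 FPKM. Cxcl12, the ligand of Cxcr4, was 14.6 and 97.4 FPKM, and Il33, an alarmin, 1.44 and 24.0 FPKM. All 6 were at least 2-fold above the second day 6 control too. The pooled Huwe1 knockdown column of day 6 held Ccl8 at 61.7 FPKM, above the USP10 library. Ccl11 (eotaxin) was the 1 that was lower, at 15.6 and 6.89 FPKM, and it was 7.07 FPKM in the second.

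**Figure D4:**
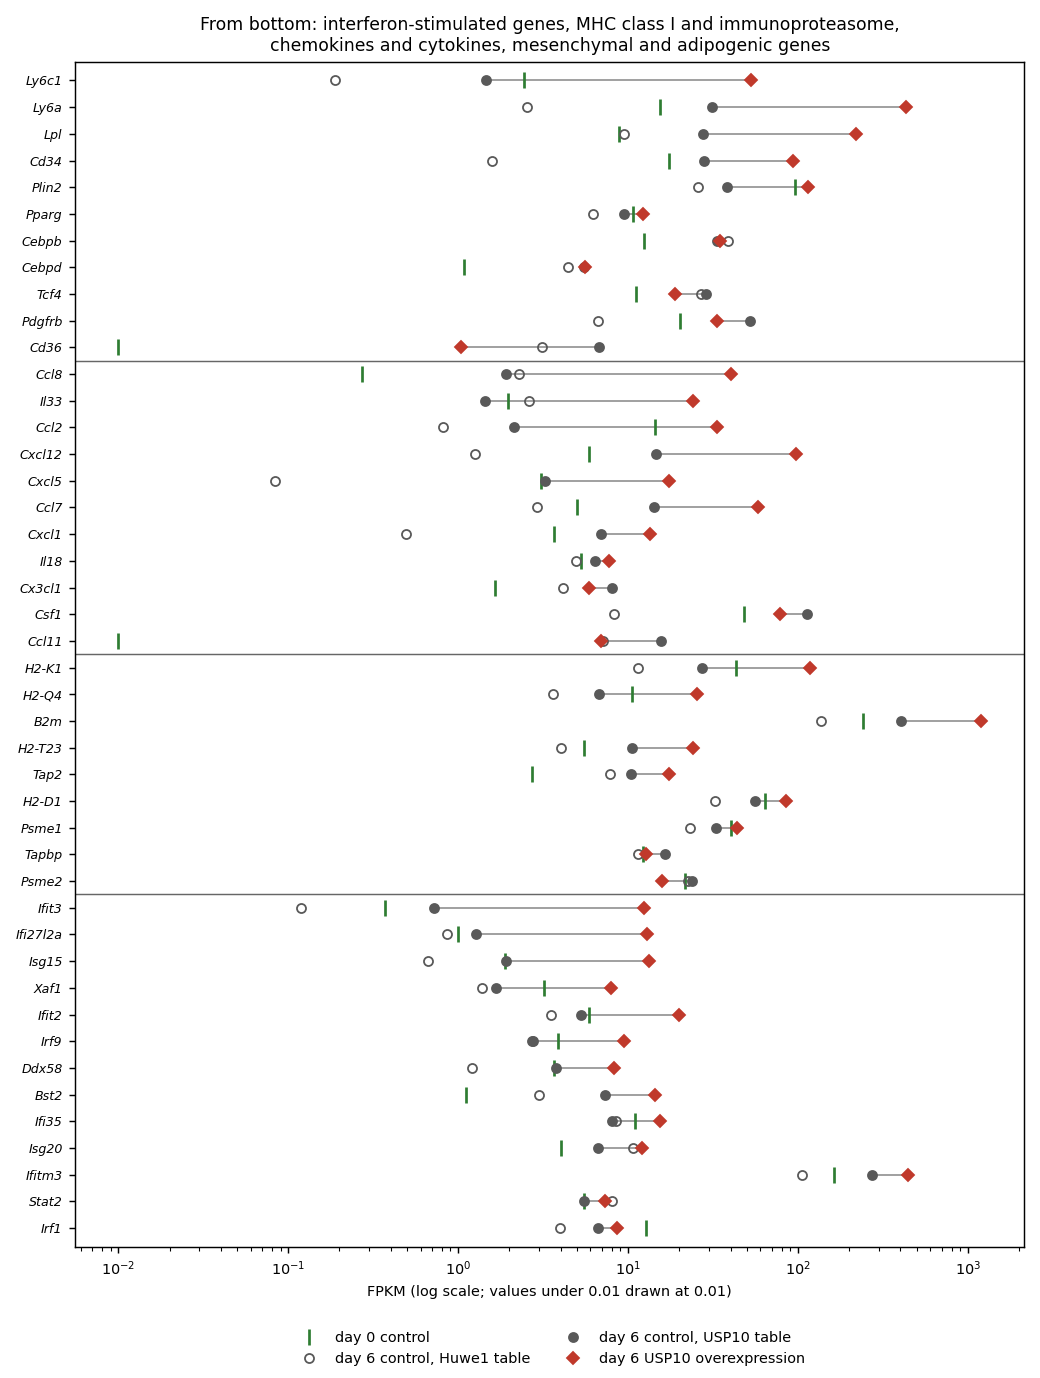
FPKM (log axis) of genes of 5 FPKM or more in either column from 4 lists, 1 gene not being drawn, with filled circles for the control used here, diamonds for the USP10 library, open circles for the second day 6 control and green ticks for the day 0 control (values under 0.01 FPKM drawn at 0.01). Diamonds lie right of both day 6 controls by at least 2-fold for 7 of the 13 interferon-stimulated genes drawn, and Ly6c1 stands at 1.45 FPKM in the control used here against 52.7 FPKM.

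Markers of mesenchymal and adipogenic cells were mixed, with 5 of 11 genes at least 2-fold higher and 1 lower (median 0.37). Ly6a (Sca-1), a progenitor surface antigen, was 31.3 FPKM in the control against 429 FPKM with USP10, its relative Ly6c1 1.45 and 52.7 FPKM, and Cd34 27.8 and 93.2 FPKM. These Ly6 genes are related in sequence, and reads could be divided between them. Lpl, lipoprotein lipase, was 27.4 and 218 FPKM and the lipid droplet protein Plin2 38.3 and 115 FPKM. The adipogenic regulators Pparg and Cebpb were 9.41 and 12.2 FPKM and 33.3 and 34.7 FPKM, both within 2-fold, and the adipocyte markers Adipoq, Plin1 and Lep were listed at 0 in both columns. In the list of bone and cartilage markers, 9 of 13 genes stayed under 1 FPKM in both columns. Sox9, a chondrogenic factor, was 9.67 and 31.0 FPKM and close to its day 0 control level of 35.1 FPKM.

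Extracellular matrix genes differed in both directions. Of 29 proteoglycan and matricellular genes, 5 were at least 2-fold higher and 9 lower. Dcn (decorin; chr10:97479500-97518162), a small leucine-rich proteoglycan, was 50.3 FPKM in the control against 3037 FPKM with USP10, a 60.4-fold difference and a log2 ratio of 5.92 (interval 5.81 to 6.03). Vcan (versican), a large proteoglycan, was 8.81 and 79.0 FPKM, and Thbs2, thrombospondin 2, 36.6 and 239 FPKM. Other small leucine-rich proteoglycans were lower, Bgn (biglycan) at 2089 and 667 FPKM and Ogn (osteoglycin) at 1137 and 423 FPKM, as was the gelatinase Mmp2 at 359 and 61.5 FPKM. These decreases depended on the control: none of the 9 lowered genes was at least 2-fold lower than the second day 6 control, in which Bgn was 194 FPKM, Ogn 281 FPKM and Mmp2 26.1 FPKM. The 5 raised genes exceeded both controls. Of 15 collagens, 2 were higher, among them Col1a2 at 121 and 265 FPKM, and 3 lower, among them Col12a1 at 137 and 30.7 FPKM. None of these 3 was lower than the second control by 2-fold. Beside the 8.57% and 7.62% of all genes at 5 FPKM, counts this small say little about the collagens as a list.

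Other names among the 12 largest increases belong to varied roles. Serpinb9b, a protease inhibitor of the clade B serpins, was 2.51 FPKM in the control against 117 FPKM with USP10, and its relative Serpinb7 3.06 and 75.3 FPKM. Elmo1, an activator of Rac, was 1.801 and 52.7 FPKM, Pla1a, a phospholipase, 7.13 and 154 FPKM, and Mgam, maltase-glucoamylase, 1.95 and 73.9 FPKM. Efhd1, a calcium-binding mitochondrial protein, was 1.90 and 52.5 FPKM, and Ranbp3l, a nuclear export factor, 1.14 and 20.3 FPKM. Control levels of these 7 genes lay between 1.14 and 7.13 FPKM. High levels were not particular to the USP10 library. In the pooled Huwe1 knockdown column of day 6, Serpinb9b was 67.7 FPKM, Serpinb7 116 FPKM, Pla1a 218 FPKM, Mgam 66.8 FPKM and Efhd1 74.0 FPKM. Ranbp3l was 13.1 FPKM there, and Elmo1 was lower than in the USP10 library at 8.34 FPKM. Clade B serpins are related in sequence, so that their single values are uncertain. Serpins as a class were not raised, since 2 of 9 were higher and 2 lower, including Serping1, the C1 inhibitor, at 11.7 and 0.102 FPKM. Gm9846, a predicted gene, led the increases at 2.69 and 908 FPKM. No transcript length was found for Gm9846, so that its fragments and interval could not be estimated. The second day 6 control listed it at 103 FPKM, and on day 0 it was 753 FPKM.

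Lower values were frequent in the insulin-like growth factor family, which promotes muscle growth. Of 13 genes, 7 were lower by 2-fold or more and 1 higher (median -1.13). Igf2 was 249 FPKM in the control against 29.3 FPKM with USP10, the neighbouring imprinted transcript H19 2764 and 367 FPKM, and Igf1 24.3 and 6.00 FPKM. Among binding proteins, Igfbp4 was 32.6 and 9.24 FPKM and Igfbp6 41.3 and 117 FPKM. Only 3 of the 7 (Igf2, H19 and Igf2r) were at least 2-fold lower than both controls, and the list median had the opposite sign, 0.57, against the second day 6 control. In the TGF-beta family, 3 of 20 genes were lower and 1 higher, beside 7.62% and 8.57% of all genes at 5 FPKM. Fst (follistatin), an inhibitor of myostatin and activins, was 12.4 and 0.863 FPKM, and the latent TGF-beta binding protein Ltbp2 36.6 and 2.21 FPKM. Ltbp2 was 2.95 FPKM in the second day 6 control, so that its decrease held against the first control alone.

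Immediate early genes were divided, 5 of 14 being at least 2-fold higher and 4 lower. Klf4, a Krüppel-like factor, was 20.5 FPKM in the control against 128 FPKM with USP10, and Jund, an AP-1 subunit, 48.1 and 153 FPKM. Egr1 was lower at 20.2 and 5.40 FPKM, and Junb, another AP-1 subunit, at 39.1 and 10.9 FPKM. Of 13 smooth muscle and SRF-YAP target genes, 11 were within 2-fold, near the 83.8% of all genes. Of 32 housekeeping genes, 2 (B2m and Polr2a) were higher and 0 lower, with a median of 0.14. Of 50 cytosolic ribosomal protein genes, 3 were higher and 0 lower (median 0.19). These were Rplp1 at 2279 and 6613 FPKM, Rps9 at 548 and 2714 FPKM and Rps14 at 181 and 457 FPKM, and the second day 6 control held 2947, 538 and 269.5 FPKM of them.

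A few genes were listed at 0 on one side, for which no fold is given. With at least 5 FPKM in the USP10 library, 44 genes were listed at 0 in the control, of which 42 were snoRNAs, miRNAs and other small RNAs, too short for a reliable FPKM, led by Scarna17 and Snord34. The others were protein-coding and included Has1, a hyaluronan synthase, at 5.12 FPKM, named after its value was seen. The reverse held for 11 genes, 6 of them small RNAs. The 5 protein-coding ones, likewise named after their values were seen, were Inmt at 22.8 FPKM in the control, Myot, Ctla2b at 9.28 FPKM, Col25a1 at 6.41 FPKM and Sucnr1 at 5.56 FPKM. Of these, the second day 6 control held Myot at 27.4 FPKM and Col25a1 at 11.2 FPKM but Inmt, Ctla2b and Sucnr1 at 0.186, 0.624 and 0.334 FPKM.

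How much of the picture depends on the control was examined gene by gene at 5 FPKM. Of the 658 genes at least 2-fold lower, 518 (78.7%) were at least 2-fold lower than the second day 6 control as well, and 35 were at least 2-fold higher than it. Of the 740 genes at least 2-fold higher, 607 (82.0%) exceeded both controls and 9 were at least 2-fold lower than the second. Since the labels give 1 wild-type day 6 sample, this sets 2 deposited columns side by side and is no replicate check. Among the lists, most lowered contractile genes were 2-fold lower than both columns: 14 of 14 lowered myosins, 12 of 12 thin filament genes and 21 of 22 Z-disc genes. The exception in the Z-disc was Xirp2, an actin-binding repeat protein, which was 166 FPKM in the control, 14.6 FPKM in the USP10 library and listed at 0 in the second control.

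The USP10 library was also set against the day 0 control, to see whether lowered genes were at proliferating levels. Of the 658 lowered genes, 325 (49.4%) were still at least 2-fold above day 0, 268 (40.7%) were within 2-fold and 65 (9.88%) were below. Over all 8638 genes the shares were 17.3%, 72.6% and 10.1%. Of the 740 raised genes, 326 (44.1%) were at least 2-fold above day 0 and 336 (45.4%) within 2-fold of it. Raised genes were chosen for a high USP10 value, and the same value was set against day 0. Lowered genes were chosen for a high day 6 control, which favours genes that rose after day 0. The surplus of both groups above day 0 over all genes is therefore partly built in. Contractile genes were mostly in the class above day 0, although many stood far below the day 6 control. In the USP10 library, all 16 genes of the myosin list and 16 of 18 thin filament genes were at least 2-fold above day 0. These genes had at least 5 FPKM in either day 6 column, but some of the calls rest on values near the floor. Myh6, Myh4 and Mybpc1 were 0.255, 0.287 and 0.318 FPKM with USP10 and were listed at 0 on day 0. Nrap was 0.596 FPKM with USP10 and 0.0645 FPKM on day 0.

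**Figure D5:**
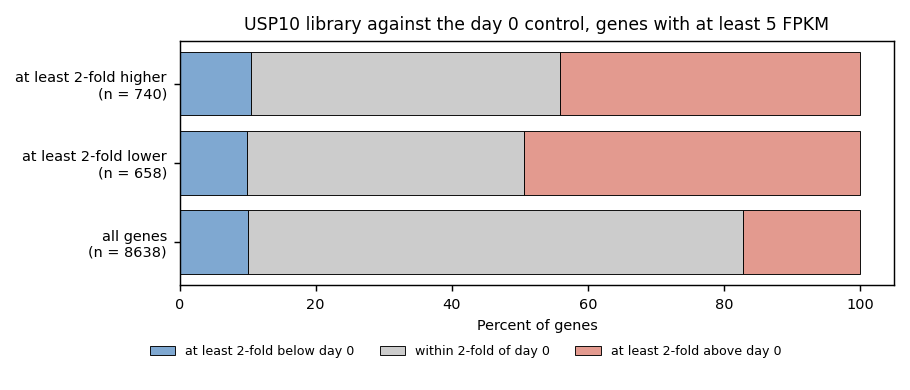
Percent of genes (horizontal axis) with at least 5 FPKM whose level in the USP10 library was at least 2-fold below, within 2-fold of, or at least 2-fold above the day 0 control, for all genes and for those at least 2-fold lower or higher than the day 6 control. The share above day 0 is 49.4% of lowered and 44.1% of raised genes, against 17.3% of all genes. The groups were chosen with the same USP10 values, so this contrast is partly built in.

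Over 10236 genes with at least 5 FPKM in any of the 8 columns, centred on the median gene, the USP10 library was within 2-fold of its own control for 83.0%, of the second day 6 control for 69.4%, of the day 0 control for 68.8% and of the day 8 control for 72.0%. Of the 7 other columns, the one with most genes within 2-fold was the pooled Huwe1 knockdown of day 6, at 90.9%, with 1.28% at least 8-fold apart, against 3.81% for its own control. Dcn stood at 2987 FPKM in that knockdown column beside 3037 FPKM in the USP10 library, Ly6a at 584 beside 429 FPKM, Cdh5 at 6.83 beside 6.81 FPKM and Myog at 27.1 beside 28.8 FPKM. The match was not complete: Tbp was 14.6 FPKM in the knockdown column and 89.6 FPKM in the USP10 library, Polr2a 70.8 and 1226 FPKM, Elmo1 8.34 and 52.7 FPKM, and Casq1 16.3 and 1.10 FPKM. Whether the day 6 columns carry the labels intended was not tested, and every value here that sets USP10 against control rests on those labels. These are levels of columns from tables that were normalized separately, and the knockdown column pools 2 libraries, so no test was made.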

How the data were processed

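Polyadenylated RNA was captured by the authors with oligo(dT) beads, made into directional ScriptSeq v2 libraries, sequenced on a HiSeq 2000 and quantified with Cuffdiff. The methods name Tophat as aligner, and the submitters' processing notes list Bowtie2 and mm10, without versions. The deposited values are FPKM, 1 column per condition. The deposited log2 fold changes, test scores, p-values and q-values of the authors were not used, and all 8 FPKM columns were. Log2 ratios used FPKM + 0.01, with a minimum of 1 FPKM in either column and weight on genes with 5 FPKM. With 1 library a side, no test was possible, and a 2-fold limit stands in for a call. Named genes were Usp10, Huwe1, Tbp and those the study names for their mRNA, the 12 largest changes each way among genes of 1 FPKM or more in both columns, 10 FPKM in one, a locus of 500 bases and a completed estimate, list members with at least 5 FPKM, and genes listed at 0 on one side.

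The members and the 34 gene lists (868 genes) were chosen with earlier results of these data known. List symbols missing from the table were found through RefSeq synonyms (5 genes). Depth was estimated from 7166 genes with 1 GENCODE M21 transcript of at least 1500 bases, as the reciprocal of the commonest low FPKM step. Fragments per gene were FPKM times the median protein-coding transcript length times this depth, and intervals of ratios are exact binomial at 95%. Transcript lengths were found for 94.7% of the genes compared. The computations were tested on simulated data. Some genes of the lists enter the counts and medians but are not reported here by name. Alternatives were pseudocounts of 0.1 and 1, other minimums, centring, loci of at least 500 bases, failed estimates left out (4 genes), a 4-fold limit and the other day 6 control. Python 3.11.15, numpy 2.4.6, pandas 2.3.3, scipy 1.17.1 and matplotlib 3.10.9 were used.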

Additional observations from a re-analysis of the deposited data

Results flagged for a closer look

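Usp10 differed in a column outside the comparison made here. In the day 6 Huwe1 knockdown column it was 35.4 FPKM, against 13.2 FPKM in the control of the same table, a log2 ratio of 1.42. The USP10 library held 38.3 FPKM. At day 0 the knockdown and control columns held 64.2 and 68.5 FPKM, and at day 8 13.1 and 14.5 FPKM. The difference has no replicate check, because the knockdown column pools 2 libraries into 1 value.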

How the results depend on the processing

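With 1 library on each side, nothing could be left out in turn. No paired analysis was possible because each column holds 1 library or 1 pooled value and no result comes from a test. The counts of 1153 lower and 1114 higher genes became 669 and 741 when 1 FPKM was required in both columns, 2880 and 2983 with no minimum, and 517 and 418 at a 4-fold limit. With the second day 6 control in place of the first, centred on the median gene, they were 1777 and 2044, and 1243 and 1432 at a minimum of 5 FPKM. Pseudocounts of 0.1 and 1, centring, loci of at least 500 bases and leaving out failed estimates kept all 4 counts within 1.5 times. For the comparison with both controls, centring was added after the data were seen, and gave 571 genes lower and 547 higher than both.

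Of 34 list medians, 18 moved by more than 1.5-fold with the second control, and 1 more, that of the IGF family, reversed from -1.08 to 0.58. Counting the IGF family, 11 changed sign. Others among them were proteoglycans (-0.22 to 2.06), collagens (-0.09 to 1.05), G2 and M phase (-0.28 to 0.98), serpins (-0.08 to 0.34) and the TGF-beta family (-0.31 to 0.03). The median of blood and endothelial markers reversed to -1.15 when 1 FPKM was required in both columns, which left Cd68 alone. At the other settings, 0 to 4 medians moved that far. Promoter motif shares were void at either window, since fewer than 80% of lowered and raised genes had a promoter. The shallow control limits genes that were low there.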
